A study of Mus musculus with 18 samples.

Results

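The genes described here are 9 members of the poly(ADP-ribose) polymerase (PARP) family, *Parp1*, *Parp2*, *Parp3*, *Parp8*, *Parp9*, *Parp10*, *Parp11*, *Parp12* and *Parp14*, together with *Dtx3l*, whose protein pairs with that of *Parp9*. They were picked by gene name, with earlier results of these data known, and are 10 of the 20615 genes in the deposited table. They are not the whole family, and 7 other members of it are given further below as a list. RNA-seq was performed on bone marrow-derived macrophages (BMDMs), which are macrophages that form when marrow cells are cultured with M-CSF, here supplied as supernatant of L929 cells. The 18 samples fell into 6 groups of 3. BMDMs came from C57BL/6 (B6) mice or from C57BL/6.NOD-*Aec1Aec2* (SjSS) mice, a model of Sjögren's syndrome in which NOD intervals are carried on the B6 background, so that the strains differ across whole intervals and not at 1 gene. All mice were 7 to 12 weeks old and, by the study's methods, female. In each strain, BMDMs were left untreated (control), exposed for 2 h to apoptotic cells (ACs, thymocytes killed with dexamethasone) at 5 per BMDM, washed and kept for 3 h more by the labels and 4 h by the methods, or treated with 1 µM CpG, an oligonucleotide that stimulates endosomal Toll-like receptors, for 6 h. By the methods, both treatments were done in complete RPMI with heat-inactivated FBS. The medium of the controls during that time is not stated there. The study names 3 mice for each strain, and neither the labels nor the methods state whether samples of the same number share a mouse or which strain's thymocytes a sample received.

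PARP enzymes take ADP-ribose from NAD and attach it to proteins and nucleic acids. PARP1 and PARP2 build long poly(ADP-ribose) chains at broken DNA, PARP3 is also switched on by breaks, and most other members add a single ADP-ribose unit. PARP9 carries macrodomains, which bind ADP-ribose, and works in a complex with the E3 ubiquitin ligase DTX3L, whereas PARP14 carries macrodomains and a mono-ADP-ribosyltransferase domain and was first known as a partner of STAT6. Several of these genes, *Parp9*, *Dtx3l*, *Parp10*, *Parp12* and *Parp14* among them, are well known as interferon-stimulated genes in macrophages.

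In mm10, 3 of the members lie side by side on chromosome 16. *Parp14* spans chr16:35832874-35871545 on the minus strand, *Dtx3l* spans chr16:35926511-35939152 on the minus strand and *Parp9* spans chr16:35938470-35972606 on the plus strand, so that *Dtx3l* and *Parp9* run away from each other and overlap at their starts by 683 bp. The others lie apart from them, *Parp1* at chr1:180568924-180601255, *Parp2* at chr14:50807946-50821301 and *Parp11* at chr6:127446840-127494262 on the plus strand, and *Parp3* at chr9:106470322-106476950, *Parp8* at chr13:116854824-117025517, *Parp10* at chr15:76231174-76243442 and *Parp12* at chr6:39086410-39118350 on the minus strand. *Parp10* also overlaps *Plec* by 1402 bp and *Parp11* overlaps *Gm43633* by 2331 bp, both on the same strand, and *Parp3* overlaps *Rrp9* by 988 bp on the other strand. Reads were assigned to genes by Partek's E/M tool, whose settings, strand among them, are not given in the sources used here, so the counts of these overlapping pairs are uncertain to that extent.

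Promoter windows (250 bases before to 50 bases after a start, RefSeq, GRCm38.p6) were matched for 7 of the 10 members, with 8 windows in all since *Parp11* has 2; *Parp9*, *Parp10* and *Parp14* have no entry. Stretches of 4 of these windows that lie upstream of the gene's own annotated transcripts are printed 5′ to 3′ on the strand of the gene. They are those of *Parp11*, *Parp12* and *Dtx3l*, 3 genes called higher with ACs in SjSS, and of *Parp2*, which passed no test. They cover chr6:127446590-127446839 for *Parp11* (plus strand), chr6:39118350-39118599 for *Parp12* (minus strand), chr16:35939207-35939277 for *Dtx3l* (minus strand) and chr14:50807733-50807840 for *Parp2* (plus strand). The *Dtx3l* stretch lies within the span of *Parp9*, which runs on the other strand. The whole *Dtx3l* window, chr16:35938978-35939277, also covers annotated *Parp9* starts from 35939011 to 35939061. Capitals mark matches to the motifs described in the next paragraph.
Parp11: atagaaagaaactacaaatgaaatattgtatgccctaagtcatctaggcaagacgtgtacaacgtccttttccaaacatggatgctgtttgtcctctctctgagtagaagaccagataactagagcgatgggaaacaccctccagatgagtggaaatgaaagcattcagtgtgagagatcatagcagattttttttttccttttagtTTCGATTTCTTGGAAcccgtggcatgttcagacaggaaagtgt
Parp12: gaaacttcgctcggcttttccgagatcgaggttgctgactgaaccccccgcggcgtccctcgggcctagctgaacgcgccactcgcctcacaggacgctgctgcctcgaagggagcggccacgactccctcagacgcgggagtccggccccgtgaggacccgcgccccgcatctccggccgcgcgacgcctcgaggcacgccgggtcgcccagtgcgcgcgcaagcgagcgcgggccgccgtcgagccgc
Dtx3l: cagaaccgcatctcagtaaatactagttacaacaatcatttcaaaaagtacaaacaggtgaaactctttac
Parp2: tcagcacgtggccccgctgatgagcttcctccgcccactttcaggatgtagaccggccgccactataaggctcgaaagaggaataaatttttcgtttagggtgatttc

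Each window was searched on both strands for 2 motifs known from interferon-responsive genes. A core of the interferon-stimulated response element, GAAANNGAA, is held by 8.56% of all 32851 windows, and the gamma-activated sequence, TTCNNNGAA, by 8.3%. The first *Parp11* window held GAAANNGAA, read on the other strand, from 43 to 35 bases before the start, and TTCNNNGAA from 37 to 29 bases before it, and these matches overlap each other in the capitals above. The other 7 windows held neither. GC content was 73.7% in the *Parp12* window and 72.3% in that of *Parp8*, against 42.0% in the first *Parp11* window and a median of 52.7% over all windows.

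The deposited values were estimated read counts, with totals from 30688336 to 57139662 per sample, and the lowest total belonged to a control SjSS sample. All 10 members were among the 15789 genes tested with edgeR's quasi-likelihood test. A gene is said here to have passed the test, or to have risen or fallen, at a Benjamini-Hochberg adjusted p under 0.05, and to have been called when its log2 fold change was also over 1.3 in size. Levels are CPM, which are counts scaled to a common library size after TMM normalization, and log2 fold changes are given ± the standard error (SE). The 8 macrophage markers checked, such as *Adgre1* and *Csf1r*, summed to between 15105 and 23748 CPM in every sample. Bulk RNA cannot tell fewer cells of a type from less RNA per cell.

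After AC treatment, 7 of the 10 members rose in B6 BMDMs and none fell, against 20.0% of all tested genes higher and 18.3% lower. In SjSS BMDMs 8 members rose and 1 fell, against 28.6% higher and 29.4% lower of all tested genes. With the fold threshold, 1 member was called higher in B6, where 2.43% of genes were, and 7 in SjSS, where 7.09% were. None was called lower, where 2.04% of genes were in B6 and 5.83% in SjSS. The median log2 fold change of the 10 members was 0.50 in B6 and 2.10 in SjSS, against 0.00 and -0.02 over all genes tested. Summed over the members, the level went from 618 ± 10.6 CPM (mean ± SD, n = 3) to 1136 ± 64.8 in B6 and from 719 ± 15.8 to 4917 ± 333 in SjSS between control and AC treated samples. *Parp14* alone made up 34.5% of this sum in control and 51.1% in AC treated samples of B6, and 33.8% and 59.1% of it in those of SjSS. These shares are of CPM without a correction for gene length, and *Parp14* has the most exon sequence of the members (9306 bp), which raises its share.

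**Figure D1:**
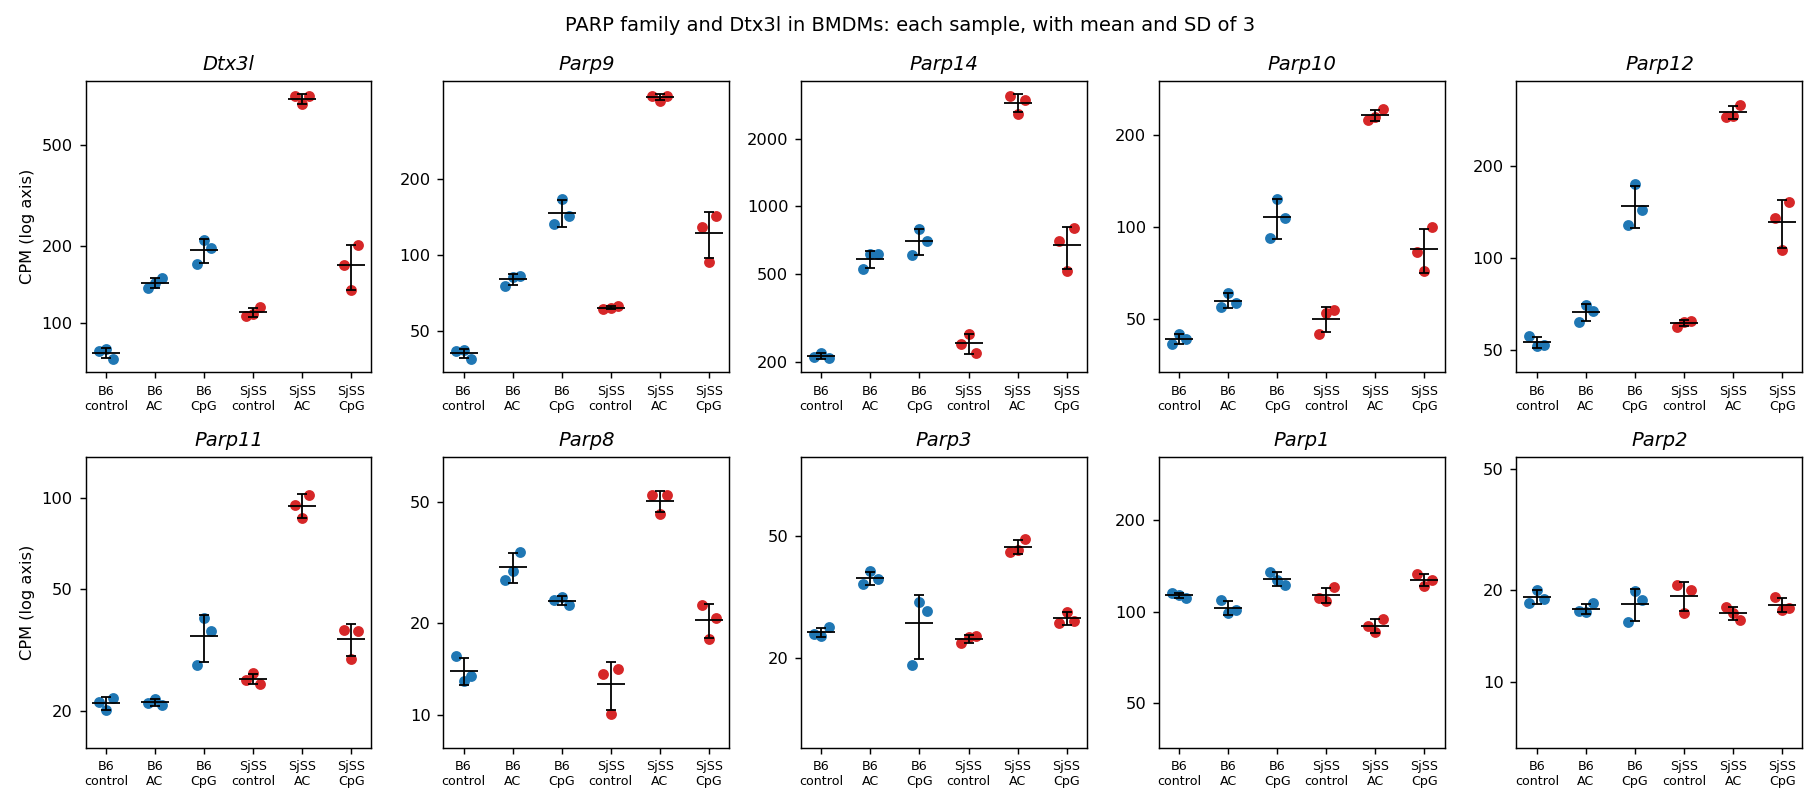
Level of each of the 10 genes in every sample, in CPM on a log axis, for B6 (blue) and SjSS (red) BMDMs under control, AC and CpG conditions. Points are samples and black bars are the mean and SD of 3. For every gene except *Parp1* and *Parp2* the 3 AC treated SjSS samples stand above all others, while *Parp2* stays between 15.7 and 20.8 CPM.

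*Parp14*, which encodes both macrodomains and a transferase, showed the largest change with ACs among the members in both strains. It stood at 211, 220 and 209 CPM in the control B6 samples and at 523, 609 and 611 CPM in the AC treated B6 samples. In SjSS it stood at 241, 268 and 220 CPM without treatment and at 3129.1, 2607.5 and 2995.6 CPM with ACs. All AC treated samples were above all controls of their strain, and the lowest AC treated SjSS sample was above every sample of the other groups. The log2 fold change was 1.45 ± 0.13 in B6 (adjusted p 5.09e-08) and 3.58 ± 0.14 in SjSS (adjusted p 6.72e-14, a 12.0-fold change), both by edgeR's quasi-likelihood test. *Parp14* was the only member called in B6.

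*Parp9* and *Dtx3l*, the divergent pair whose proteins act together, moved side by side. *Parp9* was at 41.9, 42.2 and 39.0 CPM in control B6 and at 75.6, 82.2 and 82.6 CPM in AC treated B6. In SjSS, *Parp9* was at 61.3, 61.7 and 63.1 CPM in controls and at 425, 405 and 425 CPM with ACs. Neither strain's AC treated samples overlapped its controls. *Dtx3l* was at 77.1, 78.6 and 72.0 CPM in control B6 and at 137, 143 and 150 CPM in AC treated B6. In SjSS, *Dtx3l* was at 106, 108 and 115 CPM in controls and at 776, 722 and 778 CPM with ACs. These groups did not overlap either, and the log2 fold changes of the pair were close to each other in both strains. For *Parp9* they were 0.96 ± 0.11 in B6 (adjusted p 9.68e-07) and 2.75 ± 0.11 in SjSS (adjusted p 1.22e-13). For *Dtx3l* they were 0.92 ± 0.10 in B6 (adjusted p 1.33e-06) and 2.79 ± 0.11 in SjSS (adjusted p 7.96e-14).

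*Parp10* and *Parp12* encode mono-ADP-ribosyltransferases, the second with CCCH zinc fingers, and rose far more in SjSS than in B6. *Parp10* was at 41.5, 44.6 and 43.0 CPM in control B6 and at 54.7, 61.0 and 56.4 CPM with ACs, a log2 fold change of 0.42 ± 0.11 (adjusted p 0.00472). In SjSS *Parp10* went from 44.5, 52.3 and 53.3 CPM to 224, 230 and 243 CPM, a change of 2.22 ± 0.11 (adjusted p 2.24e-12). The B6 groups were apart but close, whereas in SjSS the AC treated samples were 4.64-fold higher. *Parp12* was at 55.5, 51.4 and 51.7 CPM in control B6 and at 61.8, 70.2 and 66.9 CPM with ACs. Its B6 change of 0.33 ± 0.11 passed (adjusted p 0.0241), but it no longer did without replicate 2 or 3 of the control B6 or of the AC treated B6 samples, with adjusted p from 0.0592 to 0.0898. In SjSS *Parp12* went from 59.5, 61.5 and 62.0 CPM to 290, 292 and 317 CPM, a change of 2.30 ± 0.11 (adjusted p 1.77e-12).

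*Parp11*, which encodes a mono-ADP-ribosyltransferase with a WWE domain, rose with ACs in SjSS and did not pass in B6. Control B6 samples were at 21.3, 20.1 and 22.0 CPM and AC treated B6 samples at 21.2, 21.9 and 20.8 CPM. These overlapped, and the log2 fold change was 0.01 ± 0.11 (adjusted p 0.955), with an approximate 95% interval from -0.20 to 0.22. In SjSS *Parp11* went from 25.3, 26.5 and 24.5 CPM to 94.7, 85.5 and 102 CPM. These groups were far apart, with a change of 1.89 ± 0.10 (adjusted p 1.19e-11).

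*Parp8*, a less studied mono-ADP-ribosyltransferase, was the member with the second largest change in B6. It was at 15.6, 12.9 and 13.4 CPM in control B6 and at 27.7, 29.7 and 34.3 CPM with ACs, and at 13.7, 10.1 and 14.2 CPM in control SjSS and 52.7, 45.7 and 52.9 CPM with ACs. All AC treated samples lay above all controls of both strains. The log2 fold change was 1.13 ± 0.12 in B6 (adjusted p 3.87e-07) and 1.98 ± 0.12 in SjSS (adjusted p 3.87e-11).

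Of the members that act at DNA breaks, *Parp3* rose with ACs, *Parp1* fell in SjSS and *Parp2* passed in neither strain. *Parp3* went from 23.9, 23.5 and 25.1 CPM to 34.8, 38.4 and 36.1 CPM in B6, a change of 0.59 ± 0.11 (adjusted p 0.00032), and from 22.3, 23.3 and 23.5 CPM to 44.5, 45.0 and 48.8 CPM in SjSS, a change of 1.00 ± 0.11 (adjusted p 3.2e-07). *Parp1* was at 115, 113 and 111 CPM in control B6 and at 109, 98.6 and 101 CPM with ACs, a change of -0.14 ± 0.06 that did not pass (adjusted p 0.0672). In SjSS *Parp1* went from 111, 108 and 120 CPM to 89.6, 85.5 and 94.7 CPM and fell by 0.33 ± 0.06 on the log2 scale (adjusted p 8.76e-05). The *Parp1* groups did not overlap in either strain, and the B6 change passed without AC treated B6 replicate 1 (adjusted p 0.0351) and in a fit of only the compared groups (adjusted p 0.0366). *Parp2* was between 16.9 and 20.8 CPM in the controls of both strains and between 16.0 and 18.2 CPM with ACs, with log2 fold changes of -0.13 ± 0.09 in B6 (adjusted p 0.279) and -0.20 ± 0.09 in SjSS (adjusted p 0.0635). Without replicate 2 of the control SjSS samples, the library with the lowest total, the SjSS change of *Parp2* was -0.28 (adjusted p 0.0144).

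T lineage markers were checked because the AC treated samples had received thymocytes. The 17 T lineage markers checked, *Cd3e*, *Cd8a* and *Lck* among them, summed to between 70.5 and 86.3 CPM in controls of B6 and between 26.9 and 33.5 with ACs. In SjSS they summed to between 64.2 and 81.2 CPM in controls and between 43.6 and 47.8 with ACs. Of the 6 markers that were tested, 2 rose and 2 fell with ACs in B6, and 2 rose and 1 fell in SjSS. *Cd28* fell in both strains (log2 fold changes of -1.56 ± 0.15 and -1.02 ± 0.15). *Cd4* fell in B6 (-1.27 ± 0.14) and rose in SjSS (0.44 ± 0.13). *Lck* rose in SjSS (2.11 ± 0.47), and *Cd5* (1.25 ± 0.35) and *Tcf7* (1.36 ± 0.50) rose in B6. The other 11 markers were too low for the filter on low counts. Their sums in B6 were between 0.112 and 0.334 CPM in controls and 0.755 and 1.31 with ACs. In SjSS these sums were between 0.118 and 0.497 CPM in controls and 0.337 and 0.698 with ACs. B cell markers summed to 9.41 to 26.8 CPM, neutrophil markers to 2.31 to 12.8 and dendritic cell markers to 0.621 to 3.28 over all samples, the last highest in AC treated SjSS (2.33 to 3.28). Of the 2 dendritic cell markers tested, *Xcr1* rose with ACs in B6 (1.53 ± 0.37, adjusted p 0.00265) and in SjSS (2.94 ± 0.32, adjusted p 1.6e-07). *Xcr1* also rose with CpG in B6 (2.71 ± 0.35, adjusted p 1.61e-06) and in SjSS (1.72 ± 0.33, adjusted p 0.000186). The other, *Zbtb46*, did not pass with ACs in B6 (0.19 ± 0.32, adjusted p 0.688) or in SjSS (0.50 ± 0.35, adjusted p 0.234). With CpG *Zbtb46* fell in B6 (-1.06 ± 0.35, adjusted p 0.0153) and did not pass in SjSS (0.21 ± 0.36, adjusted p 0.643). *Trac*, *Rag1* and *Dntt* were at 0 in every control B6 sample, *Rag1* was at 0 in every control SjSS sample, and *Themis* was at 0 in every AC treated SjSS sample. The low markers thus summed to at most 1.31 CPM in any sample, and the part of these markers' cells in the changes of the members was not tested beyond these values.

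With CpG, 8 members rose in each strain and none fell, against 28.1% of genes higher and 29.8% lower in B6 and 27.8% and 26.4% in SjSS. Called higher were 5 members in B6, where 5.86% of genes were, and 1 in SjSS, where 4.81% were. None was called lower, where 6.88% and 4.45% of genes were. The median of the members was 1.04 in B6 and 0.65 in SjSS on the log2 scale, against -0.04 and -0.01 over all genes. The summed neutrophil markers were higher with CpG and went from 3.39 to 5.04 CPM in controls to 11.2 to 12.8 CPM in B6, and from 2.5 to 2.98 CPM to 5.61 to 5.96 CPM in SjSS. The sums of the 17 T lineage markers went to 10.8 to 12.9 CPM in B6 and 14.7 to 17.8 CPM in SjSS with CpG, below the controls given above. The part of these cells in the CpG changes of the members was not tested. The AC and CpG responses of a strain share their control samples, so their values are given side by side and were not correlated. The fold changes of *Parp9* and *Dtx3l* were larger in B6 than in SjSS with CpG, and larger in SjSS than in B6 with ACs.

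*Parp9* was at 132, 166 and 142 CPM in CpG treated B6 and at 129, 94.2 and 143 CPM in CpG treated SjSS, with log2 fold changes of 1.84 ± 0.11 (adjusted p 3.88e-11) and 0.97 ± 0.11 (adjusted p 2.91e-07). *Dtx3l* was at 170, 211 and 197 CPM in CpG treated B6 and at 169, 134 and 202 CPM in CpG treated SjSS, with changes of 1.34 ± 0.11 (adjusted p 2.1e-09) and 0.62 ± 0.10 (adjusted p 5.03e-05). *Parp14* was at 607, 796 and 699 CPM and at 697, 515 and 797 CPM, with changes of 1.72 ± 0.13 (adjusted p 1.14e-09) and 1.46 ± 0.13 (adjusted p 1.33e-08). Each of these genes was above its strain's controls in all CpG treated samples, and within a strain replicate 1 of B6 and replicate 2 of SjSS were the lowest CpG treated samples for all 3 genes.

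*Parp12* was at 128, 174 and 143 CPM in CpG treated B6 and at 135, 106 and 152 CPM in CpG treated SjSS, changes of 1.49 ± 0.11 (adjusted p 8.86e-10) and 1.10 ± 0.11 (adjusted p 7.22e-08). *Parp10* was at 92.0, 124 and 107 CPM and at 83.0, 71.6 and 99.7 CPM, changes of 1.32 ± 0.11 (adjusted p 3.71e-09) and 0.76 ± 0.11 (adjusted p 6.9e-06). Both were above their controls in every sample. *Parp11* and *Parp8* rose less. *Parp11* changed by 0.73 ± 0.10 in B6 (28.3 to 40.3 CPM with CpG, adjusted p 7.31e-06) and by 0.43 ± 0.10 in SjSS (29.5 to 36.8 CPM, adjusted p 0.00173). *Parp8* changed by 0.76 ± 0.12 in B6 (23.0 to 24.5 CPM, adjusted p 1.62e-05) and by 0.69 ± 0.12 in SjSS (17.8 to 23.0 CPM, adjusted p 7.39e-05). Without replicate 2 of the CpG treated B6 samples 3 members were called in B6, in place of 5.

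*Parp1*, the main source of poly(ADP-ribose), rose slightly with CpG in both strains. It was at 135, 127 and 122 CPM in CpG treated B6 and at 133, 121 and 127 CPM in CpG treated SjSS, with changes of 0.18 ± 0.06 (adjusted p 0.0137) and 0.16 ± 0.06 (adjusted p 0.0234). The SjSS change did not pass without any 1 of 4 samples, replicates 1 and 2 of the controls and 1 and 3 of the CpG treated samples (adjusted p 0.0524 to 0.112), and the B6 change did not without CpG replicate 1 (adjusted p 0.0748). *Parp3* was at 18.9, 30.4 and 28.4 CPM in CpG treated B6, where replicate 1 lay below every control and the others above, and its change of 0.10 ± 0.11 did not pass (adjusted p 0.491). Without that replicate it was 0.28 (adjusted p 0.00157). In SjSS *Parp3* was at 25.9, 28.3 and 26.4 CPM with a change of 0.22 ± 0.11 (adjusted p 0.111), which passed in a fit of only the compared groups (adjusted p 0.024). *Parp2* changed by -0.08 ± 0.09 in B6 (adjusted p 0.477) and by -0.11 ± 0.09 in SjSS (adjusted p 0.329).

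**Figure D2:**
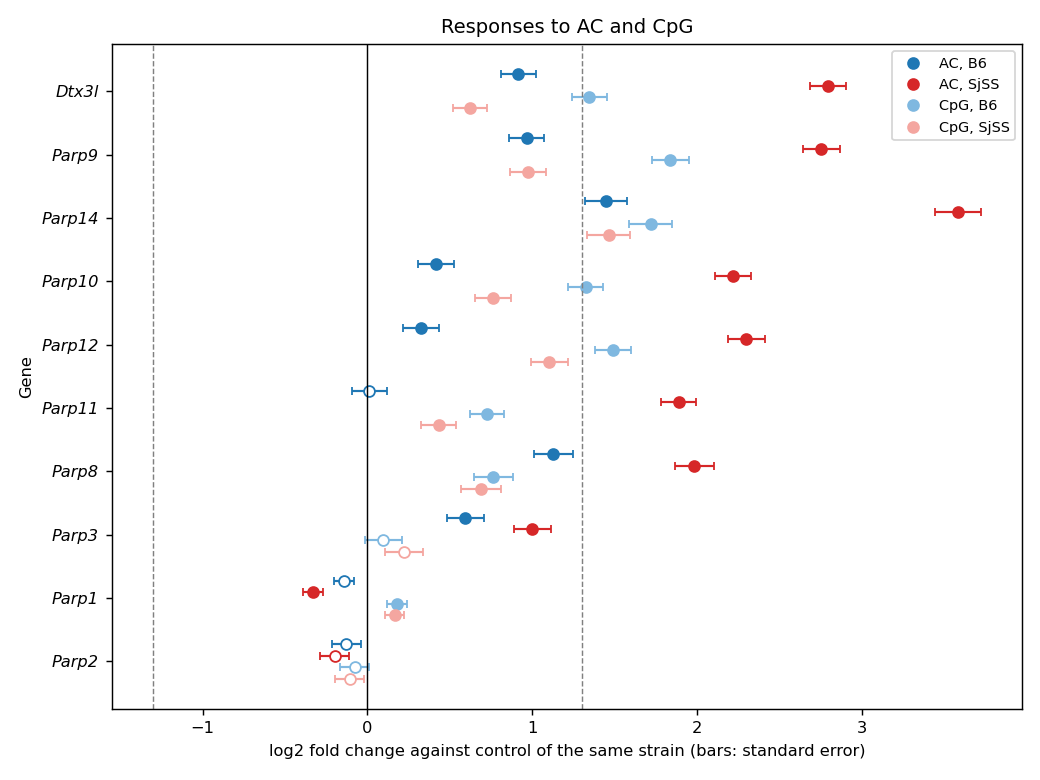
Log2 fold change against the control of the same strain for each gene, with ACs in B6 (dark blue) and SjSS (dark red) and with CpG in B6 (light blue) and SjSS (light red). Bars are the SE, filled points passed the test at an adjusted p under 0.05, open points did not, and dashed lines mark ±1.3. For the 6 genes from *Dtx3l* to *Parp11* the AC response in SjSS lies between 1.89 and 3.58, to the right of the other responses. It is also the largest response of *Parp8* (1.98) and of *Parp3* (1.00).

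ACs and CpG were also compared directly within a strain. In B6, 2 members were higher with ACs and 6 were higher with CpG, where 23.7% of genes were higher and 22.4% lower with ACs, and none was called in either direction, where 3.64% and 3.47% of genes were. In SjSS, 8 were higher with ACs and 1 was lower, where 25.7% were higher and 26.5% lower, and 5 were called higher, where 5.38% of genes were, and none lower, where 3.8% were. *Parp12* was at -1.16 ± 0.11 in B6 (adjusted p 5.37e-08) and 1.19 ± 0.11 in SjSS (adjusted p 2.56e-08). *Dtx3l* was at -0.43 ± 0.10 in B6 (adjusted p 0.0022) and 2.17 ± 0.11 in SjSS (adjusted p 6.12e-12). *Parp3* and *Parp8* were the 2 members higher with ACs in B6, at 0.50 ± 0.11 (adjusted p 0.00124) and 0.36 ± 0.12 (adjusted p 0.0144), and *Parp8* did not pass without AC replicate 3 (adjusted p 0.0862) or CpG replicate 3 (adjusted p 0.053). *Parp14* was at -0.27 ± 0.13 in B6 (adjusted p 0.0889), overlapping between treatments, and passed without CpG replicate 1 (adjusted p 0.0343), whereas in SjSS it was at 2.12 ± 0.13 (adjusted p 1.21e-10). *Parp1* was lower with ACs than with CpG in both strains, by -0.32 ± 0.06 (adjusted p 0.000181) and -0.49 ± 0.06 (adjusted p 9.4e-07).

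Between untreated BMDMs of the strains, *Parp9* and *Dtx3l* were the only members that passed. Both were higher in control SjSS, by 0.60 ± 0.11 for *Parp9* (adjusted p 0.000748) and 0.53 ± 0.10 for *Dtx3l* (adjusted p 0.00163), and their samples did not overlap between strains. Thus 2 of 10 members were higher and none lower, against 9.04% of genes higher and 10.6% lower, and none was called, where 1.3% and 0.716% of genes were. *Parp14*, their neighbour on chromosome 16, was at 209 to 220 CPM in control B6 and at 220 to 268 CPM in control SjSS, and its difference of 0.19 ± 0.13 did not pass (adjusted p 0.322). *Parp11* and *Parp12* were at 0.26 ± 0.11 (adjusted p 0.0877) and 0.21 ± 0.11 (adjusted p 0.207), and in a fit of the control samples alone both passed (adjusted p 0.0311 and 0.0377). The 4 fibroblast markers checked (*Col1a1*, *Col1a2*, *Dcn* and *Pdgfra*) summed to 38.8 to 122 CPM in control B6 and 157 to 219 CPM in control SjSS, 67.8 to 97.9 and 177 to 219 CPM with ACs, and 35.2 to 86.8 and 140 to 184 CPM with CpG. The sum was thus higher in SjSS under every condition. *Col1a1* and *Col1a2* passed under each condition, *Dcn* passed only with ACs and *Pdgfra* did not pass under any. The part of these markers' cells in the strain differences of the members was not tested.

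With ACs, 8 members were higher in SjSS than in B6 and 1 was lower, against 24.0% and 25.5% of genes, and 6 were called higher, against 6.24%, and none lower, against 2.69%. The differences of the 6 called genes lay between 2.02 for *Parp10* and 2.41 for *Dtx3l*, so that these genes were from 4.05-fold to 5.3-fold higher in SjSS. *Parp8* was higher by 0.72 ± 0.11 (adjusted p 3.18e-05). *Parp3* was higher by 0.34 ± 0.11 (adjusted p 0.0162) and *Parp1* was at -0.19 ± 0.06 (adjusted p 0.0112). These 2 calls were weak, since *Parp3* did not pass without AC treated B6 replicate 1 (adjusted p 0.0587) or SjSS replicate 3 (adjusted p 0.0644), and *Parp1* did not without AC treated B6 replicate 1 (adjusted p 0.0701) or SjSS replicate 2 (adjusted p 0.062). With CpG, no member was higher in SjSS and 1 was lower, against 10.2% and 9.57% of genes, and none was called, where 1.82% and 0.792% of genes were. That member was *Parp10*, at -0.34 ± 0.11 (adjusted p 0.0283), whose samples overlapped between strains and which did not pass without CpG treated B6 replicate 2 or without CpG treated SjSS replicate 1 or 2 (adjusted p 0.0861 to 0.17). Without CpG treated SjSS replicate 3, *Parp9* (-0.40, adjusted p 0.0117) and *Dtx3l* (-0.35, adjusted p 0.0145) passed as well.

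**Figure D3:**
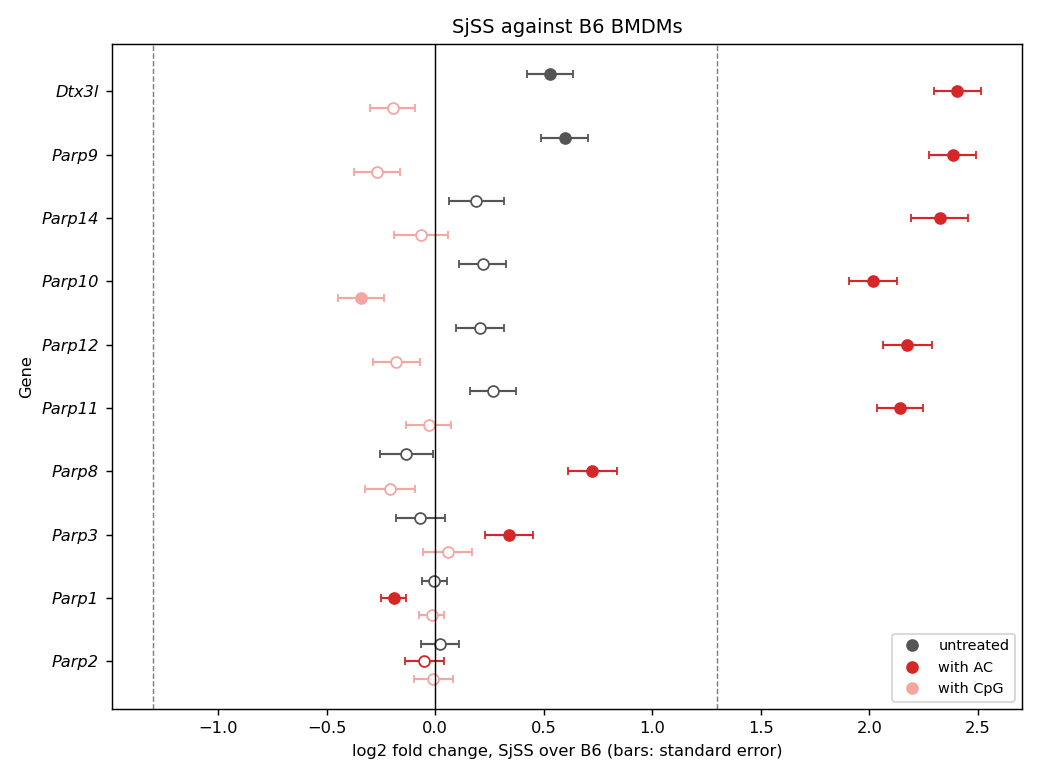
Log2 fold change of SjSS over B6 for each gene in control (grey), AC treated (red) and CpG treated (light red) BMDMs. Bars are the SE, filled points passed the test and open points did not, and dashed lines mark ±1.3. The AC values of *Dtx3l*, *Parp9*, *Parp14*, *Parp10*, *Parp12* and *Parp11* lie between 2.02 and 2.41, while their control and CpG values lie between -0.34 and 0.60.

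Whether the response itself differed between strains was tested by an interaction term, which is the SjSS log2 response minus the B6 log2 response. For ACs it passed with a larger response in SjSS for 7 members, against 19.6% of genes, with a larger response in B6 for none, against 18.3%, and 6 were called, against 4.76%, with none called the other way, against 2.77%. The values of the 6 were 2.14 ± 0.18 for *Parp14* (adjusted p 2.33e-08), 1.97 ± 0.15 for *Parp12* (adjusted p 9.89e-09), 1.88 ± 0.15 for both *Dtx3l* and *Parp11* (adjusted p 1.04e-08 for each), 1.80 ± 0.15 for *Parp10* (adjusted p 2.44e-08) and 1.79 ± 0.15 for *Parp9* (adjusted p 2.5e-08). These 6 values lay between 1.79 and 2.14, while the B6 responses behind them ran from 0.01 for *Parp11* to 1.45 for *Parp14*. *Parp8* was at 0.86 ± 0.17 (adjusted p 0.000437). *Parp3* was at 0.41 ± 0.16 (adjusted p 0.0502), beside the threshold, and passed with DESeq2's Wald test (adjusted p 0.0251). In edgeR it passed with DESeq2's size factors (adjusted p 0.0345) and without the filter on low counts (adjusted p 0.0489). It also passed in a fit of only the compared groups (0.42 ± 0.08, adjusted p 0.0012). *Parp1* was at -0.19 ± 0.08 (adjusted p 0.0843) and *Parp2* at -0.07 ± 0.12 (adjusted p 0.704), with an approximate 95% interval from -0.32 to 0.17.

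For CpG the interaction passed for 3 members, all with a smaller response in SjSS, against 2.62% of genes with a smaller and 3.23% with a larger response, and none was called, where 0.329% and 0.285% of genes were. *Parp9* was at -0.86 ± 0.15 (adjusted p 0.00214) and *Dtx3l* at -0.72 ± 0.15 (adjusted p 0.00615). *Parp10* was at -0.56 ± 0.15 (adjusted p 0.0346), and it did not pass when any 1 of 8 of the 12 samples concerned was left out (adjusted p 0.0543 to 0.0928). *Parp11* was at -0.29 ± 0.15 (adjusted p 0.278) and *Parp12* at -0.39 ± 0.15 (adjusted p 0.155), and they passed without CpG treated B6 replicate 1 (adjusted p 0.0475) and without CpG treated SjSS replicate 3 (adjusted p 0.0426), respectively. *Parp9* and *Dtx3l* were also the 2 members that were higher in control SjSS, and these control samples enter both comparisons. In the 7 cases above where edgeR passed 0 members in 1 direction, DESeq2's Wald test also passed 0. At an unadjusted p under 0.05 edgeR then gave 1 member, *Parp1*, for those lower with ACs in B6 and for those with a smaller AC response in SjSS, and 0 in the other 5 cases.

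*Dtx3l* and *Parp9* were compared as a ratio within each sample, which does not depend on scaling. Their ratio of CPM was in B6 1.84, 1.86 and 1.84 for controls, 1.81, 1.74 and 1.81 with ACs and 1.29, 1.27 and 1.39 with CpG. In SjSS it was 1.72, 1.74 and 1.82 in controls, 1.83, 1.78 and 1.83 with ACs and 1.32, 1.42 and 1.41 with CpG. All 6 CpG treated samples lay below all 12 others. The difference from controls with CpG was -0.49 in B6 and -0.35 in SjSS on the log2 scale, each with an exact two-sided permutation p of 0.1, the smallest that 3 against 3 samples can give, and 0.15 after adjustment over the 9 comparisons of this ratio. With ACs the ratio differed by -0.05 in B6 (exact permutation p 0.1) and by 0.04 in SjSS, where the groups overlapped (exact permutation p 0.2). In GENCODE M21 both *Dtx3l* transcripts start at base 35939151, whereas *Parp9* transcripts start at 5 places from 35938470 to 35939061 within the overlap and at 2 further downstream. Reads in the overlap could count towards either gene.

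**Figure D4:**
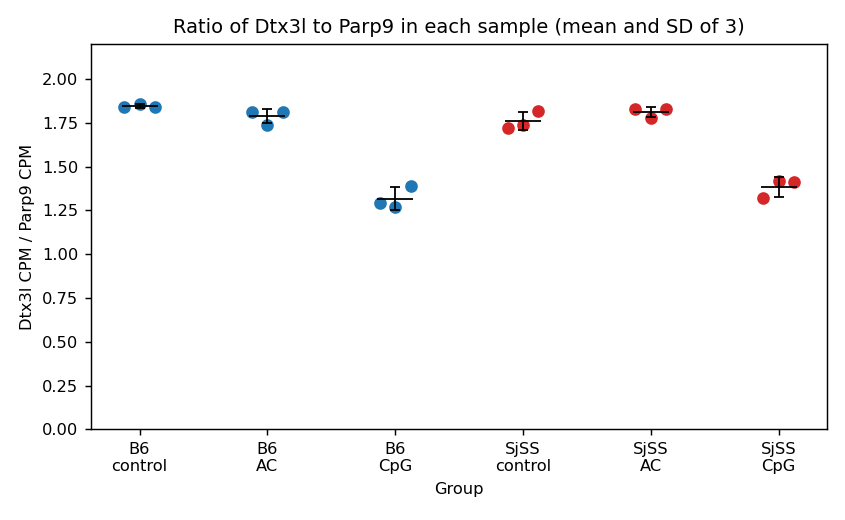
Ratio of *Dtx3l* to *Parp9* CPM in each of the 18 samples, by group, with B6 in blue and SjSS in red. The 6 CpG treated samples lie between 1.27 and 1.42 and the 12 control and AC treated samples between 1.72 and 1.86.

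Levels can be compared between genes only per length, and CPM per kb of the union of a gene's exons was used for this. In control B6 *Parp14* (22.9) and *Parp1* (21.4) were the highest members, followed by *Dtx3l* (13.3) and *Parp12* (13.2), whose samples overlapped, then *Parp10* (10.1), *Parp9* (8.42), *Parp3* (6.53), *Parp2* (5.25), *Parp11* (3.01) and *Parp8* (1.57). Neighbours in this order did not overlap except for *Dtx3l* and *Parp12*. In AC treated SjSS the order was *Parp14* (313 CPM per kb), *Dtx3l* (133), *Parp9* (85.9), *Parp12* (75.0), *Parp10* (54.3), *Parp1* (17.0), *Parp11* (13.4), *Parp3* (12.5), *Parp8* (5.68) and *Parp2* (4.64), and here only *Parp11* and *Parp3* overlapped. *Parp1* was the second in both strains' controls and the sixth in AC treated SjSS. With the longest transcript as the length, *Parp1* (29.2) and *Parp14* (28.7) overlapped at the top in control B6, and 4 of 10 members kept their place there and 8 of 10 in AC treated SjSS.

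Other genes of ADP-ribose biology were examined as lists, and their counts are to be read against the shares of all tested genes with ACs, which were 20.0% for risers and 18.3% for fallers in B6, and 28.6% and 29.4% in SjSS, where 7.09% were called higher and 5.83% lower. Of the 7 other ADP-ribosyltransferases of the family, 2 rose and 1 fell with ACs in B6, and 2 rose and 3 fell in SjSS, with median log2 fold changes of 0.03 and -0.10. The risers were the same in both strains, *Tiparp*, a target of the aryl hydrocarbon receptor, and *Zc3hav1*, the zinc finger antiviral protein. *Tiparp* went from 35.8 ± 5.06 to 68.2 ± 4.89 CPM in B6 and from 29.9 ± 3.43 to 215 ± 6.92 CPM in SjSS, log2 fold changes of 0.93 ± 0.11 (adjusted p 1.25e-06) and 2.85 ± 0.11 (adjusted p 7.31e-14). *Zc3hav1* went from 158 ± 10.9 to 215 ± 4.26 CPM and from 154 ± 10.3 to 666 ± 21.8 CPM, changes of 0.45 ± 0.09 (adjusted p 0.000458) and 2.11 ± 0.09 (adjusted p 2.37e-13). Their interactions of strain and AC, 1.92 ± 0.15 and 1.67 ± 0.12, compare with 1.79 to 2.14 for the 6 called members. *Parp16*, which sits in the endoplasmic reticulum membrane, was the largest faller at -1.27 ± 0.18 in SjSS (adjusted p 5.89e-06), while the tankyrases *Tnks* and *Tnks2* changed by 0.18 or less in size in either strain.

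Of 6 tested ADP-ribose hydrolases, which remove the modification, 2 rose and none fell with ACs in B6 and 1 rose and 1 fell in SjSS. *Adprh*, which cleaves ADP-ribose from arginine, rose by 0.48 ± 0.04 in B6 (adjusted p 6.52e-08) and 0.73 ± 0.04 in SjSS (adjusted p 4.08e-11). *Parg*, which breaks down poly(ADP-ribose) chains, was at 0.11 ± 0.07 (adjusted p 0.254) and -0.00 ± 0.07 (adjusted p 0.976). Of 3 tested Deltex relatives of *Dtx3l*, *Dtx2* rose, *Dtx3* fell in both strains and *Dtx4* fell in SjSS. *Dtx2* rose by 1.32 ± 0.13 and 1.38 ± 0.13 with ACs and by 2.70 ± 0.13 and 2.44 ± 0.13 with CpG, and its interaction of strain and AC was 0.07 ± 0.18 (adjusted p 0.806), against 1.88 for *Dtx3l*.

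Among 9 partners of PARP1 and PARP2 at DNA breaks, 2 rose and 1 fell with ACs in B6 and 2 rose and 4 fell in SjSS, with medians of -0.11 and -0.08. *Hpf1*, which lets PARP1 modify serine, rose in both strains, by 0.33 ± 0.09 (adjusted p 0.00809) and 0.52 ± 0.09 (adjusted p 9.58e-05). *Aplf*, which binds poly(ADP-ribose) at broken ends, fell in SjSS by 1.01 ± 0.11 (adjusted p 2.39e-07). None of the 9 was called in either strain.

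The list of 12 tested genes of NAD supply and use had 2 risers and 3 fallers with ACs in B6 and 5 and 3 in SjSS, of which 4 were called higher and 1 lower. *Nampt*, the rate-limiting enzyme of NAD salvage, was at 263 ± 23.8 CPM in B6 controls and 266 ± 9.16 CPM with ACs, a change of 0.02 ± 0.06 (adjusted p 0.869), and at 202 ± 11.7 and 751 ± 23.7 CPM in SjSS, a change of 1.89 ± 0.06 (adjusted p 9.19e-15). *Cd38*, which consumes NAD, rose by 0.97 ± 0.15 in B6 (adjusted p 3.47e-05) and by 2.06 ± 0.15 in SjSS (adjusted p 7.44e-10), and *Sirt1*, an NAD-dependent deacetylase, was at 0.13 ± 0.12 (adjusted p 0.417) and 1.39 ± 0.12 (adjusted p 7.72e-09). *Nmrk1*, which salvages nicotinamide riboside, fell by 0.51 ± 0.12 (adjusted p 0.00246) and by 1.32 ± 0.13 (adjusted p 3.95e-08).

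Among 16 genes of interferon and STAT signalling, 9 rose and 3 fell with ACs in B6 and 11 rose and 3 fell in SjSS. The interaction of strain and AC passed for 9 with a larger SjSS response and for 2 with a larger B6 response, against 19.6% and 18.3% of all tested genes. *Stat2*, a transcription factor of the type I interferon response, went from 60.5 ± 0.452 to 122 ± 1.3 CPM in B6 and from 96.5 ± 8.37 to 663 ± 41.5 CPM in SjSS. *Ifnb1*, which encodes interferon-β, had 5 counts over the 3 controls and 26 over the AC treated samples of B6, and 15 and 694 over those of SjSS. With CpG it had 8 and 14 counts. By edgeR's quasi-likelihood test, *Ifnb1* rose with ACs in B6 (log2 fold change 2.44, adjusted p 0.025) and in SjSS (5.61, adjusted p 2.33e-08). Its interaction of strain and AC did not pass in that test (3.17, adjusted p 0.064), so *Ifnb1* is not among the 9 genes above. *Stat6*, the factor with which *Parp14* is associated, rose in B6 by 0.14 ± 0.04 (adjusted p 0.0193) and fell in SjSS by 0.19 ± 0.04 (adjusted p 0.00126).

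**Figure D5:**
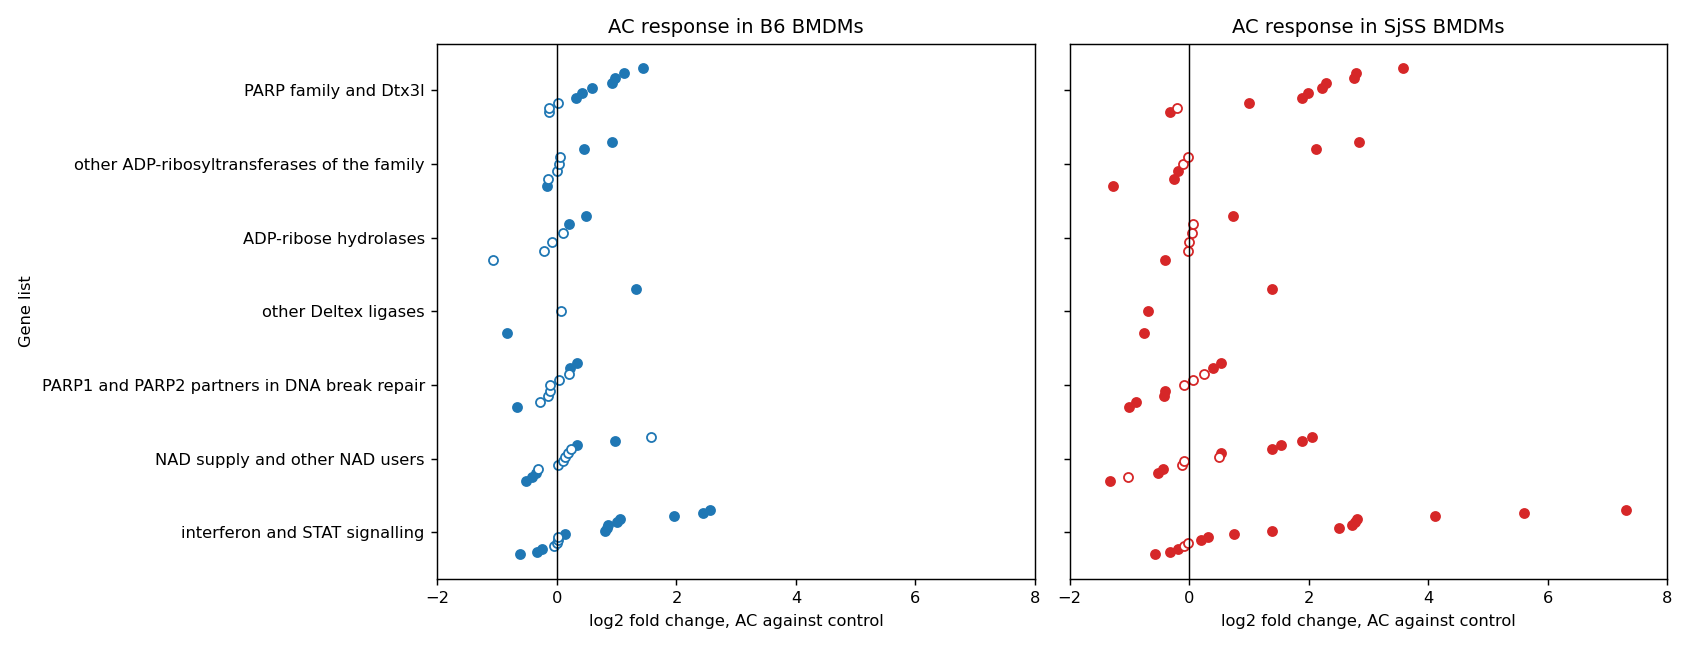
Log2 fold change with ACs of every tested gene of the 10 members and of the 6 related lists, in B6 (left) and SjSS (right), with filled points for genes that passed the test and open points for those that did not. In SjSS 8 of the 10 members lie between 1.00 and 3.58, and the median of the members is 2.1. The list medians there are 1.07 for interferon and STAT signalling, 0.21 for NAD supply and use and 0.02 for hydrolases. They are -0.08 for DNA break repair partners, -0.10 for other ADP-ribosyltransferases and -0.69 for Deltex relatives. Among the other ADP-ribosyltransferases, *Tiparp* and *Zc3hav1* lie at 2.85 and 2.11.

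The pattern of each member over the 6 groups was matched against all tested genes by the root mean square difference of the centred group means of log2 CPM, for the 7 members whose group means spanned over 1.3. The closest gene to *Parp9* was *Stat2* (0.042), followed by *Rnf213* (0.111) and *Gm4070* (0.133). *Parp11* was closest to *Etnk1* (0.047) and *Tmem229b* (0.089), *Parp10* to *Ms4a4b* (0.075) and *Trim30a* (0.092) and *Parp12* to *Trim30a* (0.085) and *Slc25a22* (0.119). *Dtx3l* was closest to *Gm42547* (0.093), *Gm28177* (0.121) and *Trim21* (0.174). *Parp14* was closest to *Slfn5* (0.176), *Trex1* (0.182) and *Samd9l* (0.207), and *Parp8* to *Rep15* (0.103), *Ralgds* (0.148) and *Fchsd2* (0.169). These are descriptions over 6 group means, and 14 of the 21 names were the same when all 18 samples were used.

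Of 6 tested genes within 250 kb of the chromosome 16 trio, 2 rose and 1 fell with ACs in SjSS, and none was called higher. The risers were *Dirc2* at 0.60 ± 0.10 (adjusted p 2.67e-05) and *Kpna1* at 0.46 ± 0.08 (adjusted p 4.88e-05), and *Wdr5b* was called lower at -1.31 ± 0.23 (adjusted p 8.11e-05). *Kpna1* at chr16:35978750-36037132 and *Hspbap1* at chr16:35770386-35828447 are the tested genes next to the trio on either side, and *Hspbap1* did not pass (0.18 ± 0.13, adjusted p 0.229). The changes of the trio itself were between 2.75 and 3.58. Around *Parp1*, 29 genes within 1 Mb were tested, and in control samples 3 were higher and 2 lower in SjSS, near the 9.04% and 10.6% of all genes, and none was called.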

How the data were processed

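The data were RNA-seq of 18 BMDM samples in 6 groups of 3, assigned from the sample labels. STAR was used by the authors for alignment (mm10) and the E/M method of Partek for quantification. What the authors deposited are estimated counts for each gene without normalization, of which 41.1% were not whole (tolerance 1e-06). The submitters' processing notes also name DESeq2 3.13. The deposited table has no columns of the authors' comparisons. Estimated counts were rounded to whole numbers. Tests used edgeR 4.0.16 and limma 3.58.1 in R 4.3.3. Summaries used pandas 2.3.3 and numpy 2.4.6 under Python 3.11.15, with plots by matplotlib 3.10.9. Of 20615 genes, 15789 were kept by filterByExpr and scaled by TMM, and 1 quasi-likelihood model of all 18 samples took the 6 groups as its terms, without a block, since none is stated in the paper. For each of 11 comparisons p-values were adjusted over all genes tested (Benjamini-Hochberg). The SE is the size of the log2 fold change divided by the square root of F.

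No pair of replicates agreed within sampling noise (chi-square per gene 8.11 to 33.6), so none was a duplicate. Where samples of a group shared a mouse or a culture, p-values measure only the spread between these samples, which may be partly technical. Precision follows the total counts, 30688336 to 57139662 per sample. The members and the gene lists were chosen with earlier results of these data known. Genes named are the members, examples from the 6 lists given whole by their counts, tested neighbours within 250 kb of the chromosome 16 genes and 1 Mb of *Parp1*, and for likeness the 3 closest genes. Alternatives were DESeq2 1.42.0, its size factors within edgeR, no filter, at least 10 counts in 3 samples, only the groups compared, a replicate block, each sample left out, and fold thresholds of 1 and 2. The pipeline was tested on simulated counts. Gene positions are those of the table, whose ends lie 1 base past those of GENCODE M21 for 8 of the 10 members. Whether the libraries kept strand is not given in the sources used here.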

Additional observations from a re-analysis of the deposited data

Results flagged for a closer look

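The response to ACs differed between strains by the test of the interaction itself for 7 members, always with the larger response in SjSS. The differences in log2 response were 2.14 for *Parp14*, 1.97 for *Parp12*, 1.88 for *Parp11*, 1.88 for *Dtx3l*, 1.80 for *Parp10*, 1.79 for *Parp9* and 0.86 for *Parp8*. All 7 kept passing under each alternative in which they were fitted. The response to CpG differed between strains for 3 members, with the smaller response in SjSS, by -0.86 for *Parp9*, -0.72 for *Dtx3l* and -0.56 for *Parp10*, the last of which did not pass in most fits that left out a sample. Groups of 3 are too small for a check of single outlying samples, and no such check was made.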

How the results depend on the processing

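Of 1520 values of single members under the alternatives, 1467 kept their side of the threshold, 29 no longer passed, 24 newly passed and 0 reversed. Among the 1467 were 32 that changed sign where neither value passed. Of 652 counts of members, 625 stayed within 1.5 times. No scaling moved the median of all genes by more than 0.029 (log2). The cause of the changes listed next was not tested, apart from the fold thresholds, which act by construction.

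With a log2 threshold of 1, called members were 2 (from 1) for ACs in B6, 2 (from 1) for CpG in SjSS, and 1 (from 0) for those lower with ACs than CpG in B6. With a threshold of 2, called members were 0 for ACs in B6, 0 for CpG in B6, 0 for CpG in SjSS, 1 for the interaction of strain and AC and 2 for ACs against CpG in SjSS. In fits of only the groups compared, 1 member (*Parp1*) fell with ACs in B6, 4 were higher in control SjSS and 0 were lower in CpG treated SjSS, where DESeq2 gave 2. Leaving out 1 sample at a time gave 0 to 1 members lower with ACs in B6, 1 to 2 lower with ACs in SjSS, 3 to 5 called higher with CpG in B6, 0 to 1 lower in SjSS with ACs, 0 to 3 lower in SjSS with CpG, and 1 to 2 higher with ACs than CpG in B6.

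Sample numbers were not shown to pair samples. Deviations of same-numbered samples correlated at -0.322 to 0.637 within a strain (14 of 18 pairs over 0.1) and at -0.491 to 0.31 across strains (5 of 27 pairs). With the replicate number as a block, 1 member (*Parp1*) fell with ACs in B6 in place of 0, and *Parp3* passed the interaction of strain and AC (0.41, adjusted p 0.0298, edgeR). With the replicate block within strain, 1 member fell with ACs in B6, 2 fell with ACs in SjSS and 1 had a smaller AC response in SjSS.

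With 3 samples a group, the smallest exact permutation p is 0.1.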
